A study of Mus musculus with 8 samples.

Results

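The genes described here code for 9 chromatin repressors that hold mouse embryonic stem cells (ESCs) out of the 2C-like state: Trim28, Setdb1, Kdm1a, Chaf1a, Chaf1b, Rif1, Zmym2, Ehmt1 and Ehmt2. Their mRNAs were examined for peaks of N6-methyladenosine (m6A), a methyl mark on adenosine. A peak was assigned to a gene when its exon blocks shared 1 base or more, on the same strand, with an exon of that gene in GENCODE release M21 (mm10). This gave 77 of the 31896 peaks of the series, 46 of 18895 from DMSO-treated cells and 31 of 13001 from cells treated with doxycycline (Dox).

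The peaks came from MeRIP-seq, in which fragments of poly(A) RNA are pulled down with an antibody against m6A (IP) and sequenced beside the unselected RNA (input). IP and input libraries, 2 replicates of each per treatment and 8 in all, were labelled as E14 mouse ESCs that had received Dox, or DMSO as the solvent control, for 24 h. All were grown in serum replacement medium with leukemia inhibitory factor. The study describes these as 2C-tdTomato cells, so that control and Dox-treated cells alike carried a Dux transgene that Dox switches on and a tdTomato reporter driven by the Mervl promoter. A Dox-treated culture therefore holds cells that entered the 2C-like state and cells that did not, and the sources used here do not say that they were sorted for MeRIP-seq. Nothing stated whether the replicates were separate cultures.

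A small share of ESCs in culture passes through a state that resembles the embryo at the 2-cell stage, in which the endogenous retrovirus MERVL and genes such as Zscan4 are transcribed. Several repressors are known to restrain it. TRIM28, brought to DNA by zinc-finger proteins, recruits the methyltransferase SETDB1, which places methyl groups on lysine 9 of histone H3 (H3K9) at retroviral elements, and EHMT1 (GLP) and EHMT2 (G9a) form a second H3K9 methyltransferase. KDM1A (LSD1) removes methyl groups from lysine 4 of histone H3 and works in complexes that contain the zinc-finger protein ZMYM2, CHAF1A and CHAF1B are subunits of the histone chaperone CAF-1, which deposits new histones behind replication forks, and RIF1 controls the timing of replication and binds regulatory regions of 2C genes. m6A is placed in the nucleus by the METTL3-METTL14 complex and is read by YTH-domain proteins, among which YTHDF2 promotes the decay of marked mRNAs.

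Each treatment was represented by a single deposited peak list, so the peak lists gave no value per replicate, no test between treatments could be made from them, and the intervals given are Wilson 95% intervals that cover counting error only. The intervals treat peaks as independent, although up to 8 came from 1 gene, and may therefore be too narrow. The score of a peak is the authors' value for it, read as the −log10 of a p-value, and its percentile is the position of that score among all peaks of the same list. The lowest scores were 10.0002 for DMSO and 10.0007 for Dox, and the medians over all peaks were 11.6 in DMSO and 11.5 in Dox. A score depends on read number as well as on the strength of a pull-down. Read depth and expression were not analysed here, and in bulk samples such as these fewer cells of a type and less RNA per cell cannot be told apart. As a check of the labels, 5 of 5 ESC marker genes (Pou5f1, Nanog, Sox2, Zfp42 and Esrrb) carried a peak in both lists, while 2 of 5 markers of 2C-like cells (Zscan4c, Zscan4d, Duxf3, Usp17la and Tcstv1) did so in DMSO and 5 of 5 in Dox. Reads of Duxf3 and of the Dux transgene cannot be told apart in these lists.

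To show what lies under these peaks, a window of 24 bases is printed for each gene, taken from the DMSO peak with the best score among those that overlapped a Dox peak and held the core m6A motif GGAC. The GGAC nearest to the middle of that peak is in capitals. Sequences were read 5′ to 3′ along the mRNA strand from the GRCm38.p6 (mm10) genome of RefSeq, with bases of the genome written as T where the mRNA has U. The overlapping peaks of Trim28 held no GGAC, and its window comes from its best-scoring peak found in DMSO only.
Setdb1, chr3:95327489-95327512, minus strand, codon 963: tgacttccaaGGACtcccgccccc
Ehmt1, chr2:24863253-24863276, minus strand, codon 374: gaggatagtaGGACttctaaagag
Ehmt2, chr17:34905226-34905249, plus strand, codon 376: aggaagaagaGGACgaggagtcgg
Trim28, chr7:13025744-13025767, plus strand, codon 189: aatacaccaaGGACcacactgtgc
Kdm1a, chr4:136550726-136550749, minus strand, 3′ UTR: tcagctactgGGACtcctagtttg
Zmym2, chr14:56903386-56903409, plus strand, codon 231: tggctccaacGGACttcagtccag
Chaf1a, chr17:56062703-56062817, plus strand, codon 568, the window crosses an exon junction: cctgggcccaGGACaaagaccttc
Chaf1b, chr16:93901106-93901129, plus strand, codon 425: tcagtcgaagGGACccccagcaac
Rif1, chr2:52112327-52112350, plus strand, codon 1934: tagccactgaGGACtttaattcag

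Of the 9 windows, 8 lay in coding sequence and only that of Kdm1a in a 3′ UTR. The motif was followed by T in 5 of them (Setdb1, Kdm1a, Rif1, Zmym2 and Ehmt1), which gives the longer form GGACT. A Dox peak covered the motif in the same 8 genes for which an overlapping peak had been required, and not in Trim28. A peak is a stretch of at least 25 bases, so these data do not show which adenosine of a peak was methylated.

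All 9 genes carried at least 1 peak in each list. Among 21938 protein-coding genes, 27.6% had a DMSO peak, 22.2% a Dox peak and 21.6% both. The 9 genes have long exonic sequence, from 4158 to 10504 nt, and of the 7770 protein-coding genes within that range 39.1% had a DMSO peak, 31.0% a Dox peak and 30.5% both. Expression was not matched, and a peak can be called only on a transcribed gene. The number of peaks ranged in DMSO from 2 (Chaf1b and Zmym2) to 8 (Trim28 and Setdb1) and in Dox from 1 (Zmym2 and Ehmt2) to 5 (Trim28, Rif1 and Ehmt1).

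The Dox list held fewer peaks on these mRNAs than the DMSO list, in about the proportion of the whole lists. The ratio of DMSO to Dox peaks was 1.48 (95% interval 0.945 to 2.33), and over all peaks it was 1.45 (1.42 to 1.49). Fewer Dox peaks were found in 7 genes, equal numbers in Chaf1b and Ehmt1, and more in none. Among the 4730 protein-coding genes with a peak in both lists, 49.4% had more DMSO peaks and 37.1% had equal numbers. In exonic bases, the peaks covered 11650 nt in DMSO and 8275 nt in Dox, or 18.9% and 13.4% of the 61694 exonic nt of these genes. The ratio of the covered bases was 1.41, against 1.47 over all peaks. All 9 genes had more bases under DMSO peaks, as did 85.7% of those 4730 genes. By role, the H3K9 group of Trim28, Setdb1, Ehmt1 and Ehmt2 had 24 DMSO and 15 Dox peaks, Kdm1a with Zmym2 had 9 and 5, the CAF-1 subunits had 7 and 6, and Rif1 had 6 and 5. The CAF-1 genes kept the most bases, 3075 nt under DMSO peaks against 2800 nt under Dox peaks, while the H3K9 group had 4000 and 2425 nt.

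**Figure D1:**
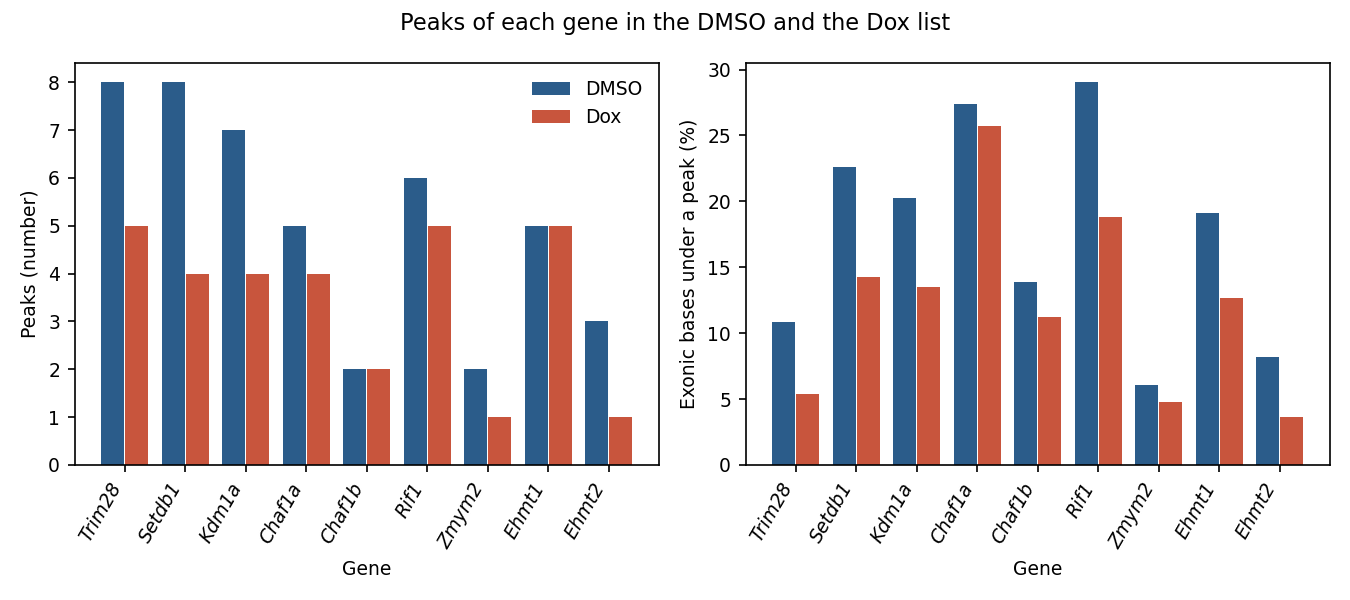
Number of m6A peaks (left, count) and share of the exonic bases under a peak (right, percent) of each of the 9 genes, with DMSO bars in blue and Dox bars in red. Each bar is a single value from 1 peak list, so there are no error bars; Dox bars are lower than or equal to DMSO bars on the left and lower for all 9 genes on the right.

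Dox peaks of these mRNAs lay almost wholly where DMSO peaks lay. Of the 31 Dox peaks, 30 shared at least 1 base with a DMSO peak (96.8%, 83.8% to 99.4%), while 92.7% of all Dox peaks did so. In bases, 8175 nt were under peaks of both lists, which is 98.8% of the bases under Dox peaks and 70.2% of those under DMSO peaks. The exception was a 25-nt Trim28 peak at chr7:13024933-13024957 with a score of 11.9. In the other direction, 24 of the 46 DMSO peaks met a Dox peak (52.2%, 38.1% to 65.9%), beside 57.0% of all DMSO peaks. The 22 DMSO-only peaks fell in 8 genes, Chaf1b having none.

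Peak lengths ran from 25 to 1800 nt in DMSO (median 125 nt) and from 25 to 1125 nt in Dox (median 175 nt). Peaks of 25 nt, the shortest in the lists, made up 17.4% of the DMSO and 16.1% of the Dox peaks of these genes (16.6% and 16.5% of all peaks), and peaks of at least 300 nt 23.9% and 29.0% (18.7% and 18.4%). DMSO-only peaks were mostly short. Their median length was 62.5 nt against 225 nt for the DMSO peaks that met a Dox peak, and over all DMSO peaks these medians were 50 and 200 nt. Of DMSO peaks under 100 nt, 3 of 15 met a Dox peak, of those from 100 to under 300 nt 10 of 20, and of those of at least 300 nt 11 of 11. Over all DMSO peaks the shares in the same length classes were 21.3%, 68.1% and 97.8%, so that the short and the long peaks of these genes stood close to the list as a whole. The interval of the middle class, 29.9% to 70.1%, included the share over all peaks. GGAC was found in 6 of the 22 DMSO-only peaks and in 19 of the 24 that met a Dox peak, and the median scores were 11.7 and 12.9. The same counts were not made over all DMSO peaks. Of the 22 peaks 12 were under 100 nt, and of the 24 peaks 3. Over all DMSO peaks, 24.0% of those under 100 nt and 70.7% of the longer ones held GGAC.

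**Figure D2:**
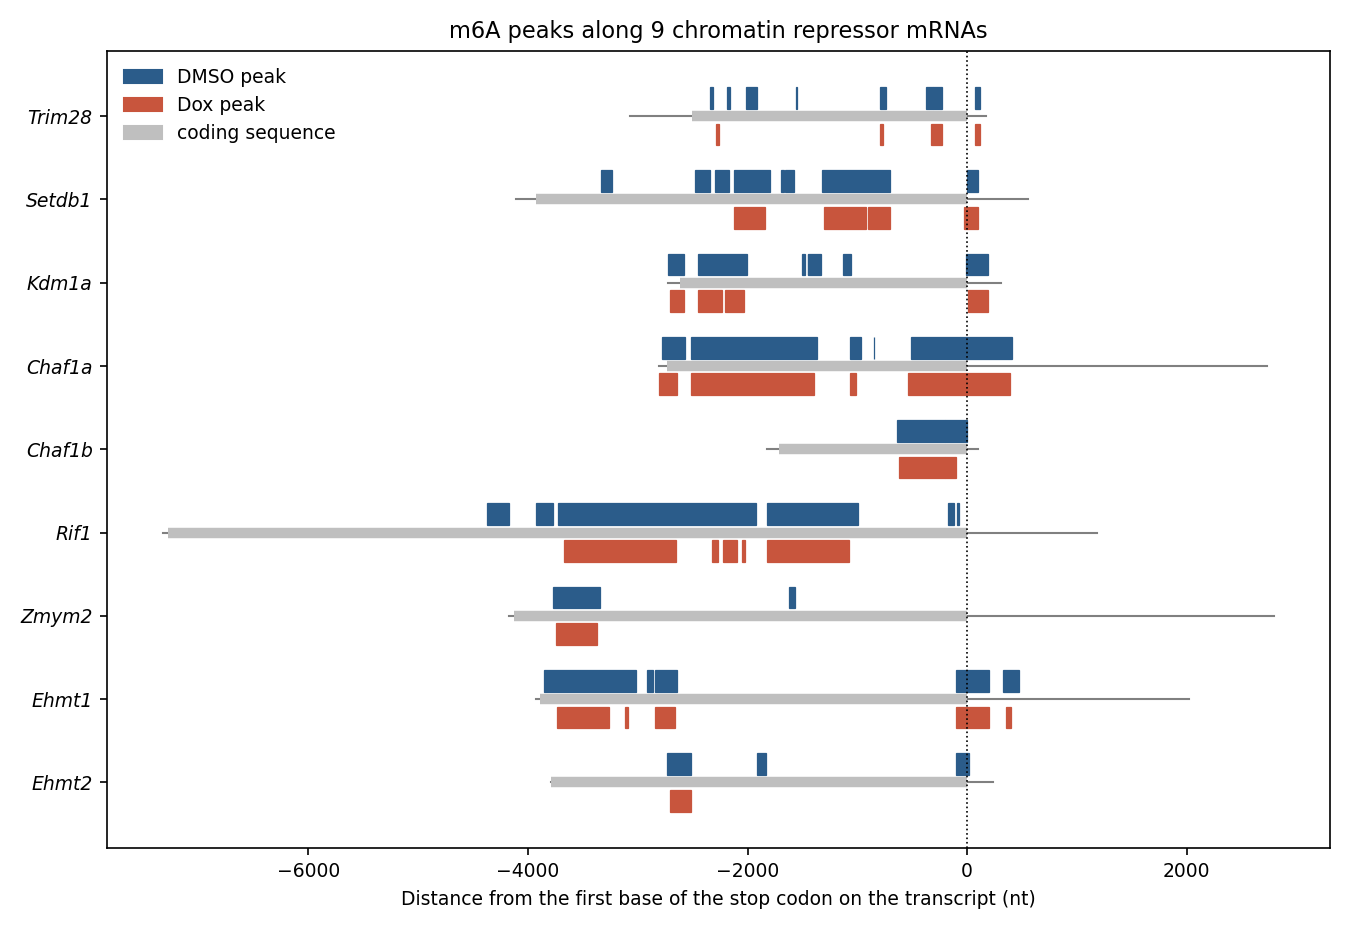
Peaks along the transcript with the longest coding sequence of each gene, with the distance in nt from the first base of the stop codon on the horizontal axis and the genes on the vertical axis. DMSO peaks are blue above the line, Dox peaks red below it, coding sequence grey, and neighbouring peaks that touch on this scale appear as 1 block; the red blocks lie under blue ones except for a narrow Trim28 peak near the start of its coding sequence.

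Trim28, the co-repressor that zinc-finger proteins bring to retroviral elements (ENSMUSG00000005566.14, chr7:12999114-13031035, plus strand), carried 8 DMSO and 5 Dox peaks, each of 25 to 100 nt and none spliced. They covered 450 and 225 nt, or 10.8% and 5.41% of its exonic bases. Its peaks were shorter than the longest DMSO peaks of the other 8 genes, which measured between 225 and 1800 nt. The scores of its DMSO peaks ran from 11.2 to 47.3. The highest score of all 77 peaks, 47.3, belonged to a 100-nt DMSO peak centred in exon 16 of 17 at chr7:13030432-13030531, over codons 732 to 757. Of its 100 nt, 23 lay outside the transcript with the longest coding sequence, which was used for positions. A Dox peak with the same ends scored 22.4, and the percentiles were 99.5 in DMSO and 98.1 in Dox, so that both stood near the top of their lists. Just upstream, a 75-nt DMSO peak at chr7:13030307-13030381 scored 13.0, and the Dox peak left of it, 25 nt long at its 3′ end, scored 22.3. This was the largest rise in score among the overlapping pairs of the 9 genes. On the transcript these neighbouring peaks abut in each list, the upstream peak ending at nt 2760 and the next beginning at nt 2761. In the 3′ UTR, a 50-nt peak at chr7:13030928-13030977 had the same ends in both lists and scores of 26.3 in DMSO and 14.1 in Dox. A 50-nt DMSO peak in exon 13 at chr7:13029725-13029774 scored 13.4, and a 25-nt Dox peak within it scored 13.0.

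Of the 4 Trim28 peaks found in DMSO only, the 100-nt peak in exon 3 at chr7:13025677-13025776, over codons 164 to 197, scored 24.5 (percentile 98.3). Only 9 of the 8134 DMSO-only peaks of the whole list, this one included, scored as high. It held the GGAC printed above, which was the single GGAC of the 12 on the Trim28 transcript that lay under any DMSO peak. None of the 12 lay under a Dox peak. The other 3 DMSO-only peaks were 25 nt long, 2 of them in exon 1 and 1 at exon 6, with scores from 11.2 to 12.7. The Dox-only peak lay between the pair in exon 1, 25 nt from the first of them, and with peaks within 100 nt counted as shared it met its DMSO neighbours.

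Setdb1, the H3K9 methyltransferase that TRIM28 recruits (ENSMUSG00000015697.14, chr3:95323525-95357202, minus strand), carried 8 DMSO and 4 Dox peaks that covered 1550 and 975 nt (22.6% and 14.2% of its exonic bases). All 4 Dox peaks met a DMSO peak. The longest DMSO peak, 625 nt in 3 blocks from exon 16 at chr3:95326260-95327790, scored 13.3 and spanned codons 867 to 1075. In Dox the same stretch held a 375-nt peak, the best Dox peak of the gene with a score of 12.3, and a 200-nt peak with a score of 12.1. Exon 13, the longest of the transcript with 687 nt, held a 325-nt DMSO peak at chr3:95338483-95338807 with a score of 12.3 and a 275-nt Dox peak inside it with a score of 11.8. The best DMSO score, 15.0, belonged to a 100-nt peak that began within the stop codon, past its first base, at chr3:95323975-95324074. Its Dox counterpart was 125 nt long, covered the whole stop codon and scored 11.3, a fall from the percentile 89.4 to 41.6. It was the only Dox peak of the 20 pairs described below that was longer than its DMSO partner.

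The 5 Setdb1 peaks without a Dox counterpart were all coding. A 125-nt peak in exon 13 at chr3:95338858-95338982 scored 14.7, which was above the score of the 325-nt peak beside it. The others of at least 50 nt were a 100-nt peak at chr3:95346798-95347076 (score 11.8), a 150-nt peak in exon 12 at chr3:95339895-95340044 (10.9) and a 100-nt peak in exon 14 at chr3:95337183-95337282 (12.5). A 25-nt peak in exon 13 scored 12.7.

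Ehmt1, which codes for the H3K9 methyltransferase GLP (ENSMUSG00000036893.17, chr2:24789928-24919614, minus strand), had 5 peaks in each list, but they covered 1550 nt in DMSO and 1025 nt in Dox (19.1% and 12.6%). The equal numbers came from a long DMSO peak that was broken up in Dox. This peak, 850 nt in 4 blocks at chr2:24863873-24887060, covered the whole of exon 3 and scored 13.2. In Dox a 475-nt peak within exon 3 scored 12.7, the best Dox score of the gene, and a 25-nt peak in exon 4 scored 10.2. The best DMSO peak, 200 nt at chr2:24856720-24863337, scored 13.7, and its Dox partner of 175 nt scored 11.6. At the stop codon a 300-nt peak at chr2:24791753-24792052 had the same ends in both lists and scores of 11.1 in DMSO and 11.5 in Dox. Behind it in the 3′ UTR, a 150-nt DMSO peak (12.3) met a 50-nt Dox peak (10.9). The DMSO-only peak, 50 nt at chr2:24863363-24863772, scored 10.4.

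Ehmt2, which codes for the partner enzyme G9a (ENSMUSG00000013787.15, chr17:34898469-34914052, plus strand), carried 3 DMSO peaks and 1 Dox peak over 450 and 200 nt (8.20% and 3.64% of its exonic bases). The peak found in both lists lay at exon 8, at chr17:34905165-34905464, with 225 nt and a score of 11.7 in DMSO and 200 nt and a score of 11.0 in Dox. Its DMSO peak over the stop codon, 125 nt at chr17:34913714-34913838, scored 11.6 and had no Dox counterpart. Ehmt1 and Ehmt2, whose proteins act as a pair, thus differed in the peaks called at the stop codon. It was under a peak in both lists in Ehmt1 and under a DMSO peak alone in Ehmt2. That Ehmt2 peak stood at percentile 47.4, and 10 of the 20 DMSO peaks of these genes from 100 to under 300 nt met a Dox peak. A difference in methylation between the treatments was not tested. A 100-nt coding peak at chr17:34906582-34906750 was DMSO-only with a score of 10.2, near the lowest of the list.

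Kdm1a, the H3K4 demethylase gene (ENSMUSG00000036940.15, chr4:136550540-136602723, minus strand), carried 7 DMSO and 4 Dox peaks over 1050 and 700 nt (20.3% and 13.5%). It was the only one of the 9 genes with a peak centred in the 5′ UTR. That peak, at chr4:136602545-136602694, measured 150 nt with a score of 11.4 in DMSO and 125 nt with a score of 12.8 in Dox. The other end of the mRNA held a 200-nt DMSO peak over the stop codon and into the 3′ UTR at chr4:136550665-136550864 with a score of 12.1, and a 175-nt Dox peak with a score of 13.1, the best Dox score of the gene. Both pairs thus scored higher in Dox. The longest peak, 450 nt in 4 blocks from exon 1 onward at chr4:136577169-136602419, scored 11.7, and in Dox it was met by peaks of 225 nt (11.3) and 175 nt (12.5).

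The remaining 4 Kdm1a peaks were DMSO-only, and all but 1 were centred toward the middle of the coding sequence. The best score of the gene, 19.9, belonged to the other, which measured 25 nt in 3 blocks at chr4:136561493-136568576. Its middle block of 12 nt, chr4:136563438-136563449, was the whole of a small exon that is annotated in another Kdm1a transcript than the one used for positions. With a further block of 9 nt, 21 of its 25 nt lay outside the transcript used for positions, and the peak was given no region there. Only 43 of the 8134 DMSO-only peaks scored as high. A 125-nt peak next to it in exon 10 at chr4:136561043-136561167 stood at percentile 59.8, and a 75-nt peak at chr4:136558548-136559223 scored 11.0. A 25-nt peak in exon 9 scored 10.2.

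Zmym2, which codes for a zinc-finger partner of KDM1A (ENSMUSG00000021945.9, chr14:56886653-56962701, plus strand), had 2 DMSO peaks and 1 Dox peak over 475 and 375 nt (6.04% and 4.77%). It was the most sparsely marked of the 9 genes in DMSO by this share. A DMSO peak of 425 nt in exon 2 at chr14:56903062-56903486, over codons 119 to 261, scored 12.8, and the Dox peak of 375 nt within it scored 10.9, a fall from the percentile 73.2 to 27.2. The DMSO-only peak was a 50-nt coding peak in exon 14 at chr14:56942014-56942063 with a score of 10.4. The 3′ UTR of 2794 nt held no peak in either list.

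Chaf1a, which codes for the large subunit of CAF-1 (ENSMUSG00000002835.9, chr17:56040439-56072289, plus strand), changed least in extent between the lists, with 5 DMSO peaks over 2425 nt and 4 Dox peaks over 2275 nt (27.4% and 25.7%). Of the bases under its DMSO peaks, 91.8% were under a Dox peak too, the highest such share of the 9 genes. A peak of 1150 nt in 6 blocks at chr17:56046950-56062138, over codons 73 to 456, scored 13.8, and its Dox partner of 1125 nt scored 12.1, the best Dox score of the gene. A peak over the stop codon measured 925 nt in both lists, at chr17:56065055-56067960 in DMSO, and scored 11.5 in DMSO and 11.8 in Dox. Exons of Ubxn6 lie under this peak on the opposite strand. The libraries were made to keep strand, but the strand setting of the peak caller was not given in the sources used here. The best DMSO score, 15.9, belonged to a 100-nt peak across the junction of exons 9 and 10 at chr17:56062678-56062868. Its Dox partner of 50 nt scored 10.8, which took the percentile from 91.7 to 22.1, the largest fall among peaks that met 1 partner each. The DMSO-only peak of this gene was 25 nt long, with a score of 10.2.

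Chaf1b, which codes for the middle subunit of CAF-1 (ENSMUSG00000022945.12, chr16:93883901-93906115, plus strand), had 2 peaks in each list, over 650 and 525 nt (13.9% and 11.2%), and was the only gene of the 9 without a DMSO-only peak. The first, at chr16:93900178-93904702, measured 450 nt with a score of 13.1 in DMSO and 425 nt with a score of 13.7 in Dox. It covered all 432 nt of exon 12, the longest of the transcript, in DMSO. The second, at chr16:93905003-93906009, shortened from 200 to 100 nt while its score stood at 11.3 in DMSO and 15.3 in Dox, and its percentile at 37.2 and 92.3. Both Chaf1b pairs scored higher in Dox, unlike 3 of the 4 Chaf1a pairs. The 2 Chaf1b peaks abut on the transcript in each list, the first ending at nt 1619 and the second beginning at nt 1620. They are therefore not separate stretches of the mRNA.

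Rif1, which codes for the replication timing regulator (ENSMUSG00000036202.16, chr2:52072832-52122383, plus strand), carried 6 DMSO and 5 Dox peaks over 3050 and 1975 nt (29.0% and 18.8%), the largest DMSO share of the 9 genes. The marked bases were concentrated in exon 30 of 36, which is 3090 nt long. Peaks covered 2755 nt of it in DMSO and 1975 nt in Dox, or 89.2% and 63.9%, and all Dox peaks of the gene lay inside it. Of the 8 GGAC in this exon, 7 were under a peak in each list. The longest of the 77 peaks, 1800 nt at chr2:52110091-52111890, scored 12.8 and spanned codons 1186 to 1785. In Dox it was met by 4 peaks of 1025, 50, 125 and 25 nt with scores of 12.1, 13.5, 10.8 and 11.0, so that its 3′ part was left with gaps. The neighbouring DMSO peak of 825 nt at chr2:52111991-52112815 had the best DMSO score of the gene, 14.0, and its Dox partner of 750 nt scored 12.2.

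Outside these long peaks Rif1 had 4 DMSO-only peaks. They measured 200 nt at chr2:52106939-52108457 (score 12.5), 150 nt at chr2:52109383-52110040 (11.8), 50 nt at chr2:52121030-52121079 (12.3) and 25 nt at chr2:52121105-52121129 (10.2). The last pair lay in the final exon, ahead of the stop codon. No Rif1 peak was centred within 200 nt of the stop codon in Dox.

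Where a DMSO peak and a Dox peak met each other and no further peak, the DMSO peak tended to be longer and to score higher, to about the same extent as over the whole lists. Of the 20 such pairs on these genes, the DMSO peak was longer in 15 (75%, 53.1% to 88.8%), equal in 4 and shorter in 1, while it was longer in 68.9% of 8891 such pairs over both lists. The DMSO score was higher in 13 and the Dox score in 7 (65% for DMSO, 43.3% to 81.9%), beside 66.1% over all pairs. The median difference in score, Dox minus DMSO, was -0.58, and over all pairs it was -0.60. Within each list, 31 of the 46 DMSO peaks (67.4%, 53.0% to 79.1%) and 20 of the 31 Dox peaks (64.5%, 46.9% to 78.9%) of these genes scored in the upper 50%, so that the DMSO interval began above and the Dox interval spanned the 50% that holds for a whole list. The 7 pairs with a higher Dox score belonged to Kdm1a and Chaf1b with 2 each and to Trim28, Chaf1a and Ehmt1 with 1 each. A further 4 DMSO peaks, 1 each of Setdb1, Kdm1a, Rif1 and Ehmt1, met several Dox peaks, which is 8.70% of the 46 against 6.86% of all DMSO peaks.

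**Figure D3:**
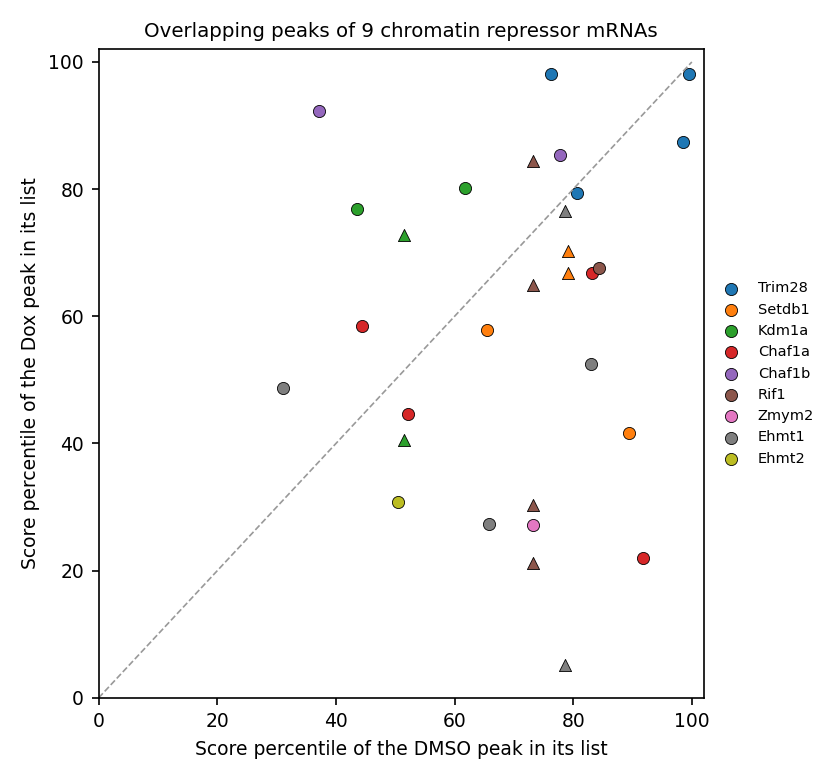
Score percentile of each DMSO peak in its list (horizontal, percent) against that of the Dox peak it overlaps (vertical, percent), coloured by gene, with circles for peaks that met a single partner, triangles for DMSO peaks that met several Dox peaks, and a dashed line of equal percentiles. The 4 Trim28 pairs lie to the upper right, the Chaf1a peak at 91.7 and 22.1 far below the line, and the Chaf1b peak at 37.2 and 92.3 far above it.

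The peaks of these mRNAs lay mostly in coding sequence. The middle base of the peak was in coding sequence for 38 of 44 DMSO peaks that could be placed on the main transcript (86.4%, 73.3% to 93.6%), against 71.8% of all placed DMSO peaks, and for 25 of 31 Dox peaks (80.6%, 63.7% to 90.8%), against 71.0%. The 3′ UTR held 5 peaks in each list, or 11.4% in DMSO (4.95% to 24.0%) and 16.1% in Dox (7.09% to 32.6%), where the whole lists had 24.7% and 25.2%. The DMSO interval ended below the share over all peaks and the Dox interval included it. Those 5 belonged in both lists to Trim28, Setdb1, Kdm1a and, with 2, Ehmt1. The 3′ UTRs of the 9 genes ran from 98 nt (Chaf1b) to 2794 nt (Zmym2). The last exons of the 9 genes made up 26.4% of their transcript bases, against 48.5% for all protein-coding genes with a DMSO peak. The shares by region were not matched for transcript structure. Within 200 nt of the first base of the stop codon, where m6A is known to gather, lay 9 DMSO peaks (20.5%, 11.2% to 34.5%) and 6 Dox peaks (19.4%, 9.19% to 36.3%), close to the 22.9% and 25.1% of all peaks. Every gene but Zmym2 had such a DMSO peak, and 6 genes had such a Dox peak, all but Zmym2, Rif1 and Ehmt2. Among all protein-coding genes with a peak in the list, 60.1% in DMSO and 57.3% in Dox had one. The first base of the stop codon was under a DMSO peak in Kdm1a, Chaf1a, Ehmt1 and Ehmt2 and under a Dox peak in Setdb1, Chaf1a and Ehmt1, with 41.3% and 38.3% as the shares over genes with a peak.

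In an exon of at least 400 nt, first and last exons included, lay the middle of 22 of 44 DMSO peaks (50%, 35.8% to 64.2%), against 62.3% of all placed DMSO peaks, and of 20 of 31 Dox peaks (64.5%, 46.9% to 78.9%), against 68.8%. When bases and not peaks were counted, long exons ahead of the last held a larger share of the marked bases than of the transcript. Exons of at least 400 nt other than the last made up 20.3% of the transcript bases of the 9 genes but held 58.7% of the bases under DMSO peaks and 66.6% of those under Dox peaks. For all protein-coding genes with a peak, such exons made up 12.9% of the bases in DMSO and held 28.7% of the marked ones, and in Dox 13.5% and 30.7%. Rif1 exon 30 alone, with 3090 nt, weighed heavily, and without Rif1 the shares of the marked bases were 47.3% in DMSO and 56.0% in Dox. The 20.3% of transcript bases includes this exon. It was not recomputed without Rif1, so these lower shares cannot be set against it. The longest exon, counted without the last exon, was covered wholly in DMSO in Chaf1b and Ehmt1, to 93.8% in Chaf1a and to 69.1% in Setdb1, but to only 5.49% in Trim28 and not at all in Ehmt2. The last exons made up 26.4% of the transcript bases and held 14.5% of the marked bases in DMSO and 15.0% in Dox, and over all genes with a peak they made up 48.5% and 48.8% of the bases and held 46.5% and 49.7% of the marked ones. Peaks that crossed an exon junction made up 39.1% of the DMSO peaks (26.4% to 53.5%) and 35.5% of the Dox peaks (21.1% to 53.1%), and 26.4% and 21.8% of all peaks.

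**Figure D4:**
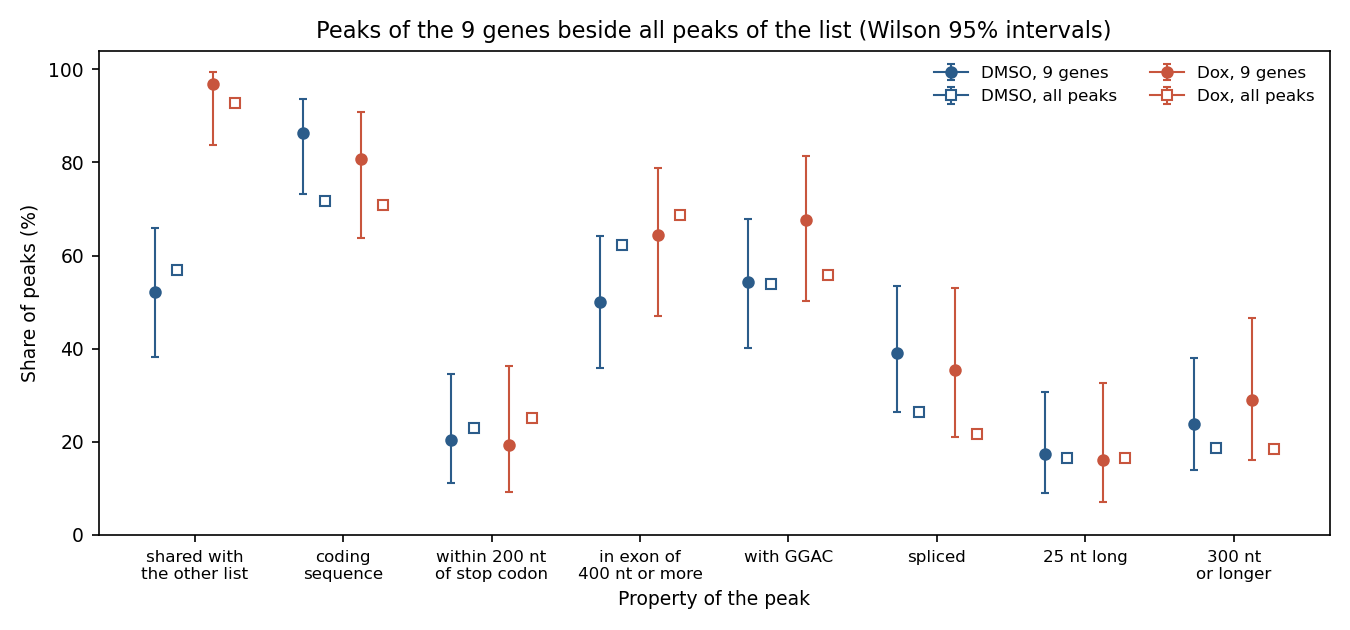
Share of peaks (vertical axis, percent) with each of 8 properties (horizontal axis) for the 9 genes, as filled circles with Wilson 95% intervals, and for all peaks of the list, as open squares, with DMSO in blue and Dox in red. The share in coding sequence in DMSO, 86.4%, has an interval that begins above the value over all peaks, 71.8%, and the other intervals in the plot include the value over all peaks. The 3′ UTR and the upper part of the scores, not plotted, are given in the text.

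The motif was about as frequent under these peaks as in the lists. GGAC, searched on the strand of the mRNA in the exon blocks, was found in 25 of the 46 DMSO peaks (54.3%, 40.2% to 67.8%), beside 54.0% of all DMSO peaks, and in 21 of the 31 Dox peaks (67.7%, 50.1% to 81.4%), beside 55.9%. Its reverse complement GTCC, as a measure of base composition, was found in 39.1% and 38.7% of the peaks of these genes and in 36.6% and 37.0% of all peaks. The motif followed peak length. Among peaks under 100 nt, 3 of 15 in DMSO and 2 of 9 in Dox held GGAC, and among longer ones 22 of 31 and 19 of 22. Over all peaks, 24.0% and 25.04% of the shorter and 70.7% and 73.0% of the longer ones did. On the main transcripts of the 9 genes there were 174 GGAC, of which 53 (30.5%) lay under a DMSO peak and 41 (23.6%) under a Dox peak, while 26.2% and 18.7% of the transcript bases did. Over all protein-coding genes with a peak, 22.1% of GGAC and 15.0% of the bases lay under a DMSO peak, and 19.7% and 12.7% under a Dox peak, so that the excess of GGAC over bases was smaller on the 9 genes than over all. By gene, Chaf1a and Chaf1b had the same GGAC counts under both lists, 10 and 4, and Setdb1 had 9 in DMSO and 6 in Dox. These are matches of letters in a window and not mapped sites.

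Genes that work with these 9 repressors were examined next. Of 52 partner genes in 7 lists, 48 were marked in DMSO, 45 in Dox and 44 in both, with 231 and 162 peaks, where the shares over all protein-coding genes were 27.6%, 22.2% and 21.6%. These partners were not matched to other genes in length or expression. Of the partners of TRIM28 and of H3K9 methylation 13 of 13 were marked in DMSO and 12 of 13 in Dox, and of the partners of KDM1A 9 of 11 in each list. The CAF-1 partners and histone H3-H4 chaperones had peaks in 8 of 8 genes in each list and the RIF1 partners in 4 of 4. For the HUSH complex, which spreads H3K9 methylation, it was 3 of 4 in each list, for the G9a and GLP partners 4 of 4 and 3 of 4, and for other repressors of 2C genes 7 of 8 and 6 of 8.

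Partner genes with a peak in DMSO only were Cbx3, which codes for the H3K9 methylation reader HP1γ, with 3 peaks and a best score of 21.6, Zfp644 with 5 peaks, Zmym3 with 2 and Smchd1 with 1. Hmg20b, a subunit gene of KDM1A complexes, was the single gene with a peak in Dox only, of 125 nt and a score of 11.1. Pphln1, Rcor3 and Hdac3 had no peak in either list. Among the partner genes with many peaks were the co-repressor gene Ncor1 (15 in DMSO and 12 in Dox), Morc2a (12 and 10), Gse1 (12 and 8) and, with equal sums, Atf7ip (9 and 9) and Atrx (8 and 10).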

How the data were processed

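MeRIP-seq libraries from DMSO- and Dox-treated mouse ESCs were made with strand retained. Per the labels and the study's methods, the authors filtered reads with fastp (0.19.4), aligned them to mm10 with HISAT2 (2.2.1), called peaks of IP over input with exomePeak2 and annotated them with ChIPseeker. The exomePeak2 version and options, and how replicates were combined, were not given in the sources used here. The authors deposited 1 peak list per treatment with a value per peak, read here as the −log10 of its p-value (adjusted or not is unknown), since it starts at 10.0002 in DMSO and 10.0007 in Dox and is infinite for 3 DMSO peaks and 1 Dox peak. A fixed threshold finds more peaks in a deeper library, so peak numbers carry depth with them, and depth was not analysed here.

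Peaks were set against GENCODE release M21 with Python 3.11.15 and pysam 0.24.0. Length is the sum of the exon blocks. Peaks were shared when at least 1 base overlapped on the same strand. Positions used the transcript with the longest coding sequence. Windows of 10 bases on each side of GGAC came from the RefSeq GRCm38.p6 genome. Near-identical loci (at least 98% identity over 90% of the peak) were sought with blastn 2.17.0. None was found, and 1 peak, the 25-nt Kdm1a peak in 3 blocks, gave no hit at all and was therefore not tested. In all, 15 DMSO and 6 Dox peaks had bases outside the main transcript. Position and overlap were tested on simulated data: 100% of 400 positions and 246 of 246 overlaps were recovered. The simulated peaks had equal lengths and lay wholly on main transcripts, and the expected stop codon was read by the same step. Errors in the stop codon, or in peaks with bases off the main transcript, could therefore not show.

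The genes and lists were chosen with earlier results of these data known. Every peak of the 9 genes was counted. Described in full were the best-scoring peak of each gene in each list, list-only peaks of at least 50 nt and peaks of at least 300 nt, and named among partner genes were those with peaks in 1 list only and the 5 with most peaks, where a tie made 6 and 1 is not reported here. Alternatives changed the score threshold, list size, transcript, strand, overlap, peak length and motif, and each gene was left out in turn.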

Additional observations from a re-analysis of the deposited data

How the results depend on the processing

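With 1 list per treatment, no replicate could be left out, and depth and the strength of the pull-down cannot be told apart. No paired analysis was possible because the peak lists pool the replicates of a treatment. Of 188 alternative values for 19 results, 169 stayed within the margin set for a like value and 19 moved. For the ratio and most shares this margin was the interval of the main value. For counts, bases and the share in long exons it was a fixed fold range. A change of direction was defined only for the ratio of DMSO to Dox peaks, where none was seen. The ratio of DMSO to Dox peaks stayed above 1 under all settings tried. It ran from 1.19 with lists of equal size (37 and 31 peaks) to 2 with scores of at least 15, and from 1.41 to 1.58 with 1 gene left out. The interval of the main ratio, 0.945 to 2.33, includes 1, and no interval was computed for the alternatives. Over all peaks the ratio was 1.45 in the full lists and is 1 by design with lists of equal size. It was not computed over all peaks at the higher score thresholds. With scores of at least 12, 26 DMSO and 16 Dox peaks, 5200 nt under Dox peaks and 29 partner genes with a Dox peak were left. With scores of at least 15, 6 DMSO and 3 Dox peaks in 4 and 2 of the genes were left. Spans with introns covered 103487 and 65494 nt. The share of Dox peaks that met a DMSO peak was 71.0% when 50% of both peaks had to overlap, and 100% for peaks of at least 50 nt, with peaks within 100 nt counted or without Trim28. GGACT was found in 28.3% of DMSO and 29.0% of Dox peaks, DRACH (D any base but C, R a purine, H any base but G) in 84.8% and 90.3%, and GGAC in 69.6% of DMSO peaks extended by 50 nt on both sides. The share of peak bases in long exons, with each gene left out, was chosen after seeing the data.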
